A study of Mus musculus with 6 samples.

Results

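The transforming growth factor β (TGF-β) and activin pathway was followed through 10 genes in cultures of enteric glial cells (EGCs), which support the neurons of the gut, with and without lipopolysaccharide (LPS, a component of the bacterial outer membrane). The genes were taken by symbol from the deposited count files: the ligands Tgfb1, Tgfb2, Tgfb3, Inhba and Gdf15, the receptors Tgfbr1, Tgfbr2 and Tgfbr3, and the inhibitors Fst and Smad7. They make up 10 of the 46603 gene identifiers in the files, each symbol matched 1 identifier, and all 10 passed the filter on low counts that 15226 genes passed. The cells were isolated from the whole intestine of E14.5 mouse embryos of the strain C57BL/6J, were grown as neurospheres and then as an attached layer in serum. The 3 control cultures had no treatment (labelled NIL), and the 3 LPS cultures received 100 ng/ml for 12 h. No allele, transgene or reporter was named for either group. The study had profiled these cultures to see which mediators EGCs express that could act on monocytes.

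TGF-β ligands are secreted bound to their propeptide, stored in the extracellular matrix by latent TGF-β binding proteins, and freed by proteases or integrins. The active ligand joins the type II receptor TGFBR2 to the type I receptor TGFBR1, a kinase that phosphorylates SMAD2 and SMAD3, and these enter the nucleus with SMAD4. TGFBR3 (betaglycan) is a co-receptor that presents TGF-β2 in particular and also binds inhibin. Activin A, a dimer of the Inhba product, signals to the same SMADs through its own receptors and is captured by follistatin, the product of Fst. SMAD7 is an inhibitory SMAD made in response to the pathway, and GDF15 is a distant family member secreted by stressed cells. In the gut, TGF-β is best known for restraining inflammation and for matrix production by mesenchymal cells.

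Total counts lay between 18775316 and 23664312 per library, and a gene at 3 counts or fewer, treated as the floor, lay at or under 0.124 to 0.167 CPM (a gene's count relative to the scaled size of its library). Such a floor allows for counting error alone. The cultures held more than glia. Of 10 glial markers 9 passed the filter, and the summed level was 735.6 to 1009 CPM in control and 750.3 to 777.3 CPM in LPS, with Ngfr the most abundant; 1 was called higher and 2 lower (median log2 fold change -0.23). All 12 macrophage markers passed the filter, with Cx3cr1 at the floor in LPS replicate 2, and they were led by Lyz2, with Mrc1 second in control and Adgre1 in LPS. Their sum was far higher in the libraries numbered 3: 3889, 5013 and 11910 CPM in control replicates 1, 2 and 3, and 4040, 5248 and 19710 CPM in LPS replicates 1, 2 and 3. Of these 12 markers 1, Adgre1, was called higher in LPS by edgeR and 2 by DESeq2, and 0 were called lower by either (1 lower at an unadjusted p under 0.05; median 0.68). With the replicate number as a block, which compares libraries that carry the same number, 5 were called higher and 3 lower (Mrc1, Cx3cr1 and Cd68). Smooth muscle markers summed to 2325 to 2568 CPM in control and 676.9 to 971.7 CPM in LPS, with 6 of 7 tested called lower (median -1.85), Acta2 and Tagln being the most abundant. Mesenchymal markers summed to 1586 to 1818 CPM in control and 1829 to 1932 CPM in LPS, led by Col6a1 and Pdpn in LPS and Col6a1 and Pdgfrb in control, with 2 of 8 called higher and 0 lower by edgeR (1 lower by DESeq2 and 1 at an unadjusted p under 0.05; 2 lower, Lum and Thy1, with the block; median -0.09). Neuronal markers summed to 258.2 to 469.7 CPM in control and 276.3 to 446.4 CPM in LPS, led by Uchl1 and Tubb3, with 1 of 8 called lower (median -0.07). Endothelial markers, led by Kdr and Emcn, summed to 18.4 to 24.2 CPM and 14.48 to 21.6 CPM, and 0 of 4 were called by edgeR, by DESeq2 or at an unadjusted p under 0.05 (median 0.26), while the block model called 2, Pecam1 and Cdh5, higher. Beside all these marker counts, edgeR called 9.09% of all genes tested higher and 6.71% lower. The shares were 13.7% and 11% with DESeq2 and 15.4% and 14.9% in the block model.

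LPS cultures were compared with control cultures to ask which of the 10 genes changed. Inhba and Tgfbr3 were higher and Tgfb2 was lower after LPS, and the other 7 genes were not called at an adjusted p under 0.05. Across all genes tested 15.8% were called, 9.09% higher and 6.71% lower, and a list of 10 genes is too short to read 2 higher and 1 lower as a property of the list. The median log2 fold change of the 10 genes was -0.23, against -0.02 over all genes tested. The CPM values of the 3 LPS and the 3 control libraries did not overlap for 4 of the 10 genes, Tgfb2, Tgfb3, Tgfbr3 and Inhba, and for 38.7% of all genes tested. When the replicate number was added to the model as a block, 3 genes were called higher and 3 lower, against 15.4% and 14.9% of all genes tested in that model.

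**Figure D1:**
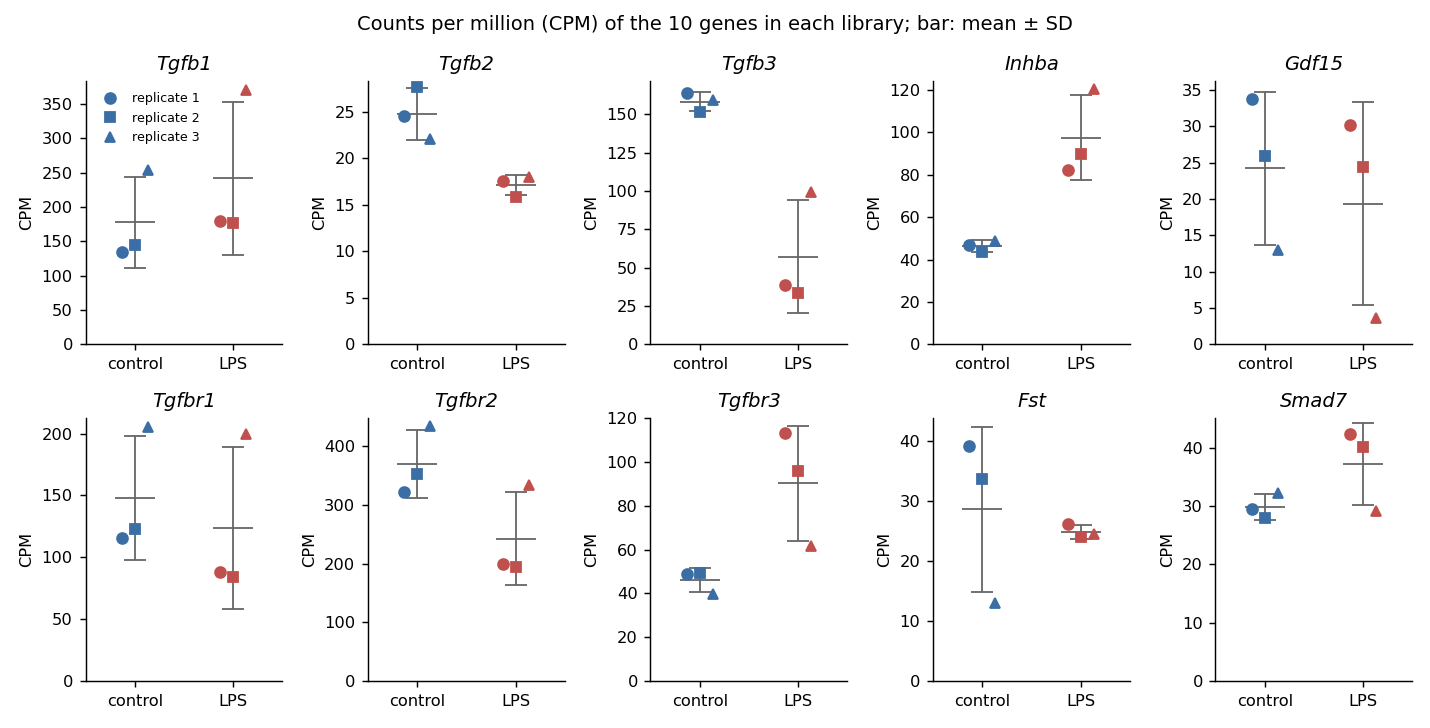
CPM (vertical axes, from 0, 1 panel per gene) of the 10 genes in the 3 control (blue) and 3 LPS (red) libraries; the symbol shape gives the replicate number, and the bar and whiskers give mean ± SD. The groups are apart for Tgfb2, Tgfb3, Tgfbr3 and Inhba, and replicate 3 of each group is the highest library for Tgfb1, Tgfbr1, Tgfbr2 and Inhba and the lowest for Gdf15 and Tgfbr3.

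**Figure D2:**
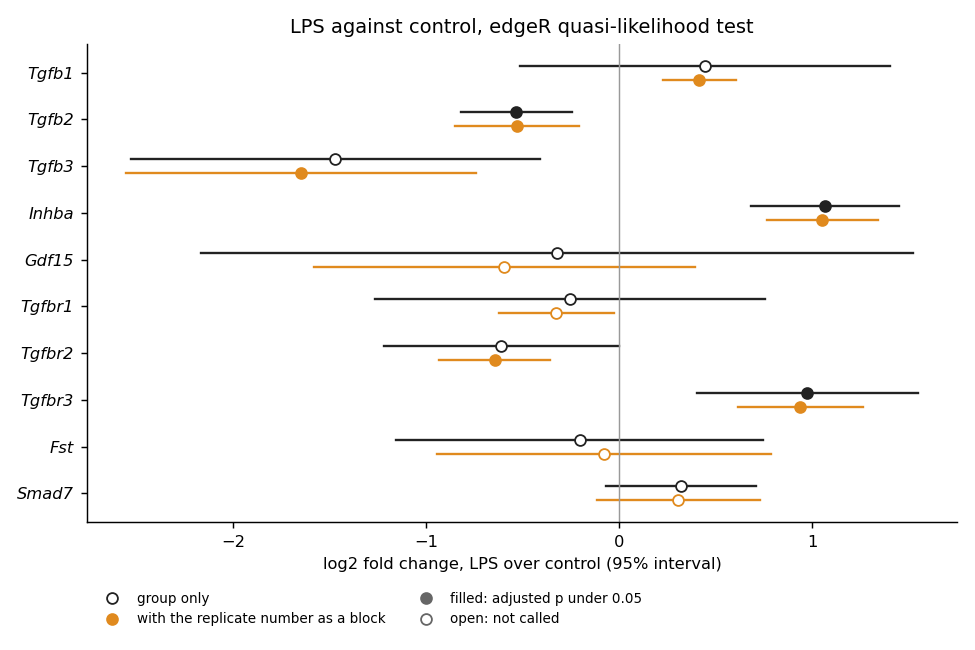
Log2 fold change of LPS over control (horizontal axis, with 95% intervals) from the edgeR quasi-likelihood test with the group alone (black) and with the replicate number as a block (orange); filled points have an adjusted p under 0.05. Inhba and Tgfbr3 lie above 0 and Tgfb2 below 0 in both models, and Tgfb1, Tgfb3 and Tgfbr2 are filled with the block alone.

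Among the ligands, the clearest rise was that of Inhba, the gene of the activin A subunit (GRCm38 chr13:16011851-16031621, plus strand, 5 exon blocks). Its level was 47.1, 43.5 and 49.0 CPM in control replicates 1, 2 and 3 and 82.5, 89.7 and 120.4 CPM in LPS replicates 1, 2 and 3. Each LPS library was above each control library, and the level rose in all 3 same-numbered pairs. The mean went from 46.5 ± 2.80 to 97.5 ± 20.2 CPM (SD, n = 3), a log2 fold change of 1.07 (SE 0.16, 95% interval 0.68 to 1.45; edgeR quasi-likelihood test, Benjamini-Hochberg adjusted p = 0.0114), or 2.10-fold. The call was lost without control replicate 1 (adjusted p = 0.056) and without control replicate 2 (adjusted p = 0.0668), with the log2 fold change at 1.08 and 1.03.

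Tgfb2, the least abundant of the TGF-β ligands here (chr1:186622792-186705989, minus strand, 10 exon blocks), moved the other way. It was at 24.6, 27.7 and 22.1 CPM in control and 17.5, 15.9 and 18.0 CPM in LPS. The groups did not overlap, and the LPS libraries were close together. The mean fell from 24.8 ± 2.81 to 17.1 ± 1.10 CPM (SD, n = 3), a log2 fold change of -0.53 (SE 0.12, 95% interval -0.82 to -0.25; edgeR adjusted p = 0.0341), or 1.45-fold lower. Leaving out control replicate 1 or 2 or LPS replicate 1 or 2 ended the call, with adjusted p-values between 0.102 and 0.13. In bulk RNA, fewer cells of a type and less RNA per cell cannot be told apart, and the smooth muscle markers were lower in the same libraries. Their part in the levels of Tgfb2 and of the other genes that were lower in LPS was not tested.

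Tgfb3 (chr12:86056745-86079041, minus strand, 7 exon blocks), the ligand with the highest level per kilobase in control, had the largest log2 fold change of the 10 genes in size. It was at 164, 151 and 159 CPM in control and 38.5, 33.2 and 99.5 CPM in LPS. All LPS libraries lay below all control libraries, but LPS replicate 3 was 2.78 times the mean of LPS replicates 1 and 2. The means were 158 ± 6.28 and 57.1 ± 36.9 CPM (SD, n = 3), and the log2 fold change was -1.47 (SE 0.43, 95% interval -2.53 to -0.41), or 2.77-fold, which did not pass the threshold (edgeR adjusted p = 0.0729). With the replicate block it was called lower (log2 fold change -1.65, edgeR adjusted p = 0.0284), and without LPS replicate 3 it was called lower as well (-2.14, adjusted p = 0.000325). It was also called lower with upper-quartile scaling (adjusted p = 0.0481), library size alone (0.0423), DESeq2 (0.00655) and limma-voom (0.046). Of its exon bases, 7.6% also belong to Gm48008 and 4.82% to Gm37804, both on the opposite strand, and the strand setting of the counting was not stated.

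Tgfb1 (chr7:25687002-25705077, plus strand, 8 exon blocks) encodes the ligand that immune and stromal cells make most widely. It was at 135, 144 and 254 CPM in control and 179, 176 and 371 CPM in LPS. In both groups replicate 3 was the highest, by 1.82-fold in control and 2.09-fold in LPS over the mean of replicates 1 and 2, and the groups overlapped because control replicate 3 exceeded LPS replicates 1 and 2. The means were 178 ± 66.2 and 242 ± 111 CPM (SD, n = 3), with a log2 fold change of 0.45 (SE 0.39, 95% interval -0.51 to 1.40; edgeR adjusted p = 0.486). Within same-numbered pairs the log2 ratio was 0.41, 0.29 and 0.55, and with the replicate block Tgfb1 was called higher (log2 fold change 0.42, edgeR adjusted p = 0.0187). Without LPS replicate 3 the value was -0.0021 (adjusted p = 0.996).

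Gdf15 (chr8:70629393-70632456, minus strand, 3 exon blocks) was at 33.7, 25.9 and 12.98 CPM in control and 30.2, 24.4 and 3.56 CPM in LPS. Replicate 3 was again apart, here as the lowest library, 2.3-fold below the mean of replicates 1 and 2 in control and 7.66-fold below it in LPS. The groups overlapped, and the means were 24.2 ± 10.5 and 19.4 ± 14.0 CPM (SD, n = 3; log2 fold change -0.32, SE 0.75, 95% interval -2.17 to 1.52; edgeR adjusted p = 0.812). Its receptor gene Gfral had 0 counts in every library, which allows up to the floor given above.

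The promoter sequences of the ligands are shown for the pair called in opposite directions and for Tgfb1, the ligand with the highest mean level per kilobase in LPS. They are the 250 bases before the start site in RefSeq on GRCm38.p6, 5′ to 3′ on the strand of the gene. Capitals mark a TATA box (TATAAA) in Inhba and Tgfb2 and a match to the κB motif in Tgfb1.
Inhba, chr13:16011601-16011850, plus strand: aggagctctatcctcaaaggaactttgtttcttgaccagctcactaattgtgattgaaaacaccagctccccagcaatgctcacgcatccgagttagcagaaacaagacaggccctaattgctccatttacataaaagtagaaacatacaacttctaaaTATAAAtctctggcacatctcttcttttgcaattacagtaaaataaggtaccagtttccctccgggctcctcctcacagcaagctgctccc
Tgfb2, chr1:186705990-186706239, minus strand: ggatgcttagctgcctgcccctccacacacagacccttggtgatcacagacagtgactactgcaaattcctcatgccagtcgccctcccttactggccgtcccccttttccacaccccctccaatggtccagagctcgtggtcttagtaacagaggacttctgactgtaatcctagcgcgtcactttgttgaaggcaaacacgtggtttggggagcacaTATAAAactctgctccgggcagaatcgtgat
Tgfb1, chr7:25686752-25687001, plus strand: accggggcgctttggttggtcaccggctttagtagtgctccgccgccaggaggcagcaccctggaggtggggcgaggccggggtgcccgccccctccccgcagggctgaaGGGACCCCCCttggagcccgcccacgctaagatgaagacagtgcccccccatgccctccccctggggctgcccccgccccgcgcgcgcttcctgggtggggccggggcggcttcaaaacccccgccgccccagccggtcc
The TATA box lay 31 to 26 bases before the start in Tgfb2 and 91 to 86 bases before it in Inhba, and 12.4% of 32851 promoter windows of the same length held one on either strand. The κB match of Tgfb1 lay 140 to 131 bases before the start, and 7.25% of windows held such a match. Tgfb2 also held the SMAD box CAGAC at 221 to 217 and 204 to 200 bases before the start, letters found in 42.2% of windows. The windows of these 3 genes held no AP-1 motif TGANTCA, which 6.75% of windows held. The 3 windows also differed in base composition, with 43.2% G and C in Inhba, 53.6% in Tgfb2 and 75.2% in Tgfb1. A match of letters is a description and does not show that a factor binds.

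Of the receptors, the co-receptor rose while neither kinase receptor was called. Tgfbr3 (chr5:107106570-107289629, minus strand, 18 exon blocks), the betaglycan gene, was at 48.9, 49.3 and 39.7 CPM in control and 113, 96.0 and 61.8 CPM in LPS. All LPS libraries were above all control libraries, with replicate 3 the lowest in each group. The mean went from 46.0 ± 5.45 to 90.3 ± 26.2 CPM (SD, n = 3), a log2 fold change of 0.97 (SE 0.23, 95% interval 0.40 to 1.55; edgeR adjusted p = 0.0426), or 1.97-fold. This call was close to the threshold. It was lost with upper-quartile scaling (adjusted p = 0.0675), with library size alone (0.0709), with limma-voom (0.054) and without any 1 library other than LPS replicate 3 (0.0931 to 0.14), while the log2 fold change stayed between 0.78 and 1.18. Of its exon bases 4.54% also belong to Gm43422 on the same strand.

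Tgfbr2 (chr9:116084293-116175360, minus strand, 8 exon blocks), the ligand-binding type II receptor, was at 323, 354 and 435 CPM in control and 199, 194 and 335 CPM in LPS. It was lower in LPS in each same-numbered pair, by 0.70, 0.86 and 0.38 on the log2 scale, but LPS replicate 3 exceeded control replicate 1. The means were 371 ± 58.2 and 243 ± 79.6 CPM (SD, n = 3; log2 fold change -0.61, SE 0.25, 95% interval -1.22 to -0.00091; edgeR adjusted p = 0.155). With the replicate block it was called lower (-0.65, edgeR adjusted p = 0.0176), and leaving out LPS replicate 3 gave the same call (-0.92, adjusted p = 0.0132).

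Tgfbr1 (chr4:47353222-47414931, plus strand, 13 exon blocks), the type I receptor kinase, was at 115, 123 and 205 CPM in control and 87.9, 84.1 and 199 CPM in LPS. As for Tgfb1, replicate 3 was the highest in each group, 1.72 times the mean of replicates 1 and 2 in control and 2.32 times in LPS. The groups overlapped, and the means were 148 ± 49.9 and 124 ± 65.5 CPM (SD, n = 3; log2 fold change -0.26, SE 0.41, 95% interval -1.27 to 0.75; edgeR adjusted p = 0.718). Without control replicate 3 the value was 0.070 (adjusted p = 0.926).

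Tgfb1 and Tgfbr1 were the members whose level in replicate 3 was more than 1.5-fold above replicates 1 and 2 in both groups, a pattern held by 5.27% of all genes tested. The macrophage markers were highest in the same libraries, and the neuronal, glial and smooth muscle markers were lowest in them in both groups. Summed neuronal markers were at 469.7, 459.5 and 258.2 CPM in control replicates 1, 2 and 3 and 428.3, 446.4 and 276.3 CPM in LPS. Summed glial markers were at 1009, 930.1 and 735.6 CPM in control and 774.3, 777.3 and 750.3 CPM in LPS. The part of any of these cell types in the levels of the members was not tested. When both libraries numbered 3 were left out, an alternative chosen after these values were seen, 4 members were called higher and 5 lower, against 22.6% and 20.4% of all genes tested in that comparison of 2 libraries with 2. In it Tgfb1 was higher (log2 fold change 0.37, edgeR adjusted p = 0.00264), Tgfbr1 lower (-0.45, adjusted p = 0.00148) and Gdf15 not called (adjusted p = 0.628).

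**Figure D3:**
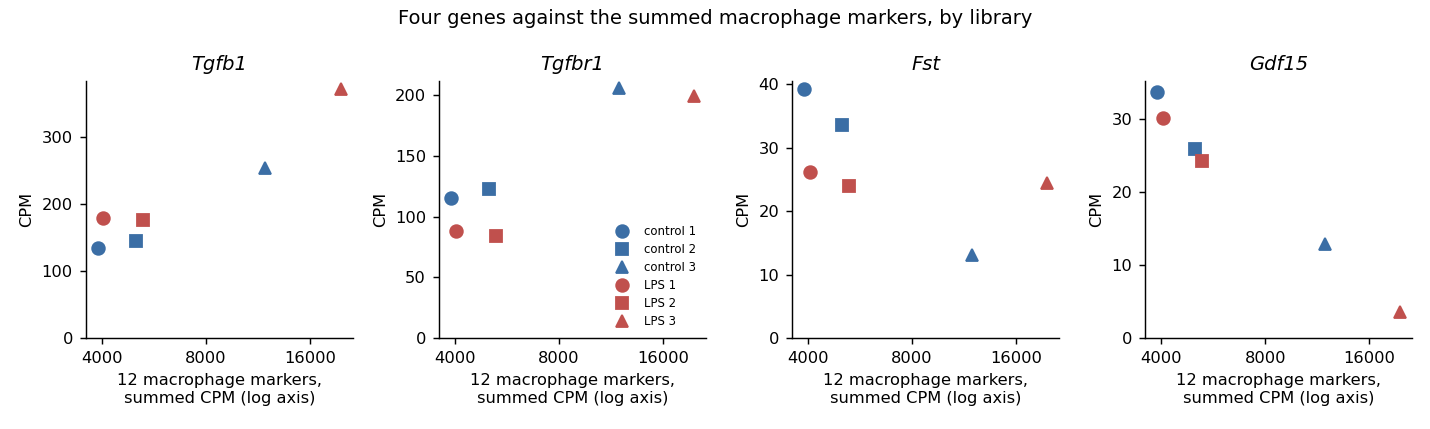
CPM of Tgfb1, Tgfbr1, Fst and Gdf15 (vertical axes, from 0) against the summed CPM of 12 macrophage markers (horizontal, log axis) in each control (blue) and LPS (red) library; shapes give the replicate number. The libraries numbered 3, at 11910 and 19710 CPM of markers, are the highest for Tgfb1 and Tgfbr1 and the lowest for Gdf15, and Fst is low in control replicate 3 alone.

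The inhibitors were not called. Fst (chr13:114452290-114458951, minus strand, 3 exon blocks), whose product follistatin captures activin, was at 39.2, 33.6 and 13.1 CPM in control and 26.1, 24.0 and 24.4 CPM in LPS. Control replicate 3 was 2.79-fold below the mean of the other two control libraries, and the 3 LPS libraries lay between it and them. The means were 28.6 ± 13.8 and 24.8 ± 1.15 CPM (SD, n = 3; log2 fold change -0.20, SE 0.39, 95% interval -1.16 to 0.75; edgeR adjusted p = 0.762). That single library decided the call, since without control replicate 3 Fst was called lower (-0.54, edgeR adjusted p = 0.0356).

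Smad7 (chr18:75367529-75395935, plus strand, 6 exon blocks), the inhibitory SMAD, was at 29.4, 27.9 and 32.2 CPM in control and 42.4, 40.1 and 29.2 CPM in LPS. LPS replicates 1 and 2 were above all control libraries and LPS replicate 3 lay among them. The means were 29.8 ± 2.18 and 37.2 ± 7.05 CPM (SD, n = 3; log2 fold change 0.32, SE 0.16, 95% interval -0.068 to 0.71; edgeR adjusted p = 0.226), and without LPS replicate 3 Smad7 was called higher (0.47, edgeR adjusted p = 0.025).

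Levels were compared between genes as CPM per kilobase of annotated exon. In control the order of mean levels was Tgfb3 (46.7 ± 1.86), Tgfbr2 (45.3 ± 7.10), Tgfb1 (35.2 ± 13.1), Tgfbr1 (22.6 ± 7.64), Gdf15 (13.1 ± 5.66), Inhba (7.28 ± 0.437), Tgfbr3 (7.02 ± 0.833), Smad7 (6.60 ± 0.483), Fst (6.24 ± 3.0) and Tgfb2 (4.28 ± 0.485; SD, n = 3). The range of each gene over the libraries overlapped that of its neighbour in this order, while the ends of the order were apart. Such an overlap does not show that neighbours were at the same level within a library. Tgfb1, for example, was above Tgfbr1 in each control library. In LPS the order was Tgfb1 (48.0 ± 22.1), Tgfbr2 (29.7 ± 9.73), Tgfbr1 (19.0 ± 10.0), Tgfb3 (16.9 ± 10.9), Inhba (15.3 ± 3.16), Tgfbr3 (13.8 ± 4.0), Gdf15 (10.5 ± 7.56), Smad7 (8.24 ± 1.56), Fst (5.41 ± 0.249) and Tgfb2 (2.96 ± 0.189; SD, n = 3). There the neighbours overlapped except Smad7 with Fst and Fst with Tgfb2. Tgfb3 moved from the first place to the fourth, and Tgfb2 was last in both groups.

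**Figure D4:**
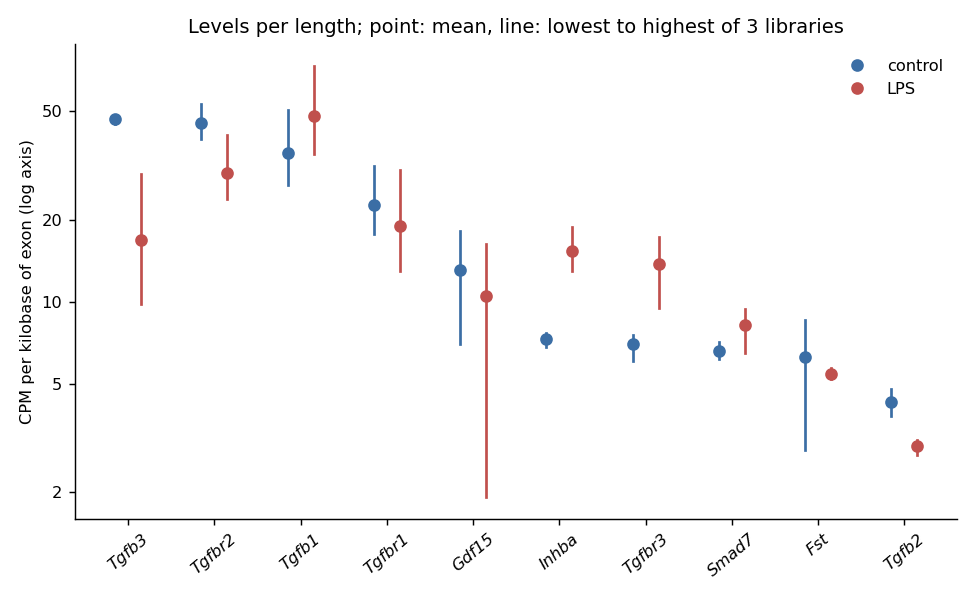
Level of each gene in CPM per kilobase of exon (vertical, log axis) in control (blue) and LPS (red), ordered by the control mean; points are means and lines run from the lowest to the highest of 3 libraries. Tgfb3 goes from 46.7 to 16.9 and Inhba from 7.28 to 15.3, and Gdf15 has the longest line.

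The rest of the pathway was described with 6 lists of 77 genes, of which 64 passed the filter. LPS raised 10 and lowered 5 of the 64, against 9.09% and 6.71% of all genes tested, with a median log2 fold change of 0.09. The same shares stand beside the edgeR counts of each list below, and with DESeq2 they were 13.7% and 11%. At an unadjusted p under 0.05 there were 4892 of all 15226 genes, in either direction. Single lists are too short to read such counts as a property of a list. The groups did not overlap for 29 of the 64, against 38.7% of all genes. The counts moved with the model and with single libraries. The replicate block gave 19 higher and 13 lower calls (15.4% and 14.9% of all genes), and without both libraries numbered 3 the counts were 27 and 21 of 65 (22.6% and 20.4%). Leaving out control replicate 2 left 1 higher and 3 lower (2.44% and 0.72% of all genes), control replicate 1 left 2 and 3 (3.03% and 1.25%), LPS replicate 2 left 2 and 3 (3.36% and 1.04%), and LPS replicate 1 left 3 and 4 (3.98% and 1.44%). Without LPS replicate 3 the counts were 19 and 8 (12.6% and 9.13%). The calls over all genes moved in the same way. Of the called genes, Acvr1b, Tagln and Timp3 were called in all 14 alternative settings.

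In the list of latent TGF-β storage and activation, 1 of 14 tested genes rose and 2 fell (median log2 fold change 0.08). Furin, a protease that cleaves the TGF-β propeptide, went from 177 ± 24.7 to 243 ± 5.51 CPM (SD, n = 3; log2 fold change 0.46, SE 0.11, edgeR adjusted p = 0.0458). This call was lost in 8 of 14 alternative settings, among them upper-quartile scaling (adjusted p = 0.0699) and library size alone (0.0839). The fibrillins, matrix proteins to which latent complexes attach, both fell: Fbn2 from 67.0 ± 22.8 to 16.6 ± 2.83 CPM (log2 fold change -2.02, SE 0.28, adjusted p = 0.010) and Fbn1 from 1074 ± 142 to 717 ± 79.6 CPM (-0.58, SE 0.14, adjusted p = 0.0414). The call of Fbn1 was lost without any 1 of the 6 libraries (adjusted p up to 0.151) and that of Fbn2 without LPS replicate 2 (0.0565). The block model called 3 genes of the list higher and 5 lower.

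Among the other activin, inhibin and GDF ligands, 4 of 11 genes passed the filter and 0 were called by edgeR, by DESeq2 or at an unadjusted p under 0.05, while 1, Inhbb, was called lower with the replicate block. The most abundant was Gdf11, a ligand of the activin type II receptors, at 11.8 CPM per kilobase in control and 9.01 in LPS. The second was Inhbb, the activin B subunit, in control (4.21, and 2.13 in LPS) and Inha, the inhibin subunit, in LPS (4.48, and 1.99 in control). Inhba was the activin subunit gene called higher, and the log2 fold change of Inhbb was -0.99 (SE 0.43, edgeR adjusted p = 0.178; with the replicate block adjusted p = 0.00708).

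Of the other receptors and co-receptors, 1 of 6 tested genes rose and 0 fell (0 lower by DESeq2 and at an unadjusted p under 0.05; median log2 fold change 0.23). This was Acvr1b, which encodes the activin type I receptor ALK4. It was at 24.8, 25.3 and 34.9 CPM in control and 62.6, 68.8 and 71.8 CPM in LPS, so that the groups were well apart. Replicate 3 was the highest library in each group, and it stood further above the others in control than in LPS. The log2 fold change of Acvr1b was 1.26 (SE 0.16, edgeR adjusted p = 0.00679). Both Inhba and Acvr1b were thus higher in LPS, but the other activin receptor genes did not follow. The type II receptor genes Acvr2a (log2 fold change -0.37, edgeR adjusted p = 0.349) and Acvr2b (-0.32, 0.508) were not called, and Acvr1c did not pass the filter. These receptor genes were named after their values were seen. The block model called 3 genes of this list higher.

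Of the other antagonists, 2 of 5 tested genes rose and 0 fell with edgeR (4 higher and 1 lower both with DESeq2 and at an unadjusted p under 0.05; median log2 fold change 0.56). Over all genes tested, edgeR called 9.09% higher and 6.71% lower and DESeq2 13.7% and 11%, and 5 genes are too few to read these counts as a property of the list. Fstl3, a follistatin relative that binds activin, went from 24.8 ± 0.311 to 51.9 ± 15.7 CPM (SD, n = 3; log2 fold change 1.06, SE 0.23, edgeR adjusted p = 0.0334). Dcn, which encodes the proteoglycan decorin that binds TGF-β, went from 1203 ± 54.0 to 2244 ± 318 CPM (0.90, SE 0.13, adjusted p = 0.0118). Control replicates 1 and 2 and LPS replicates 1 and 2 each carried both calls (adjusted p up to 0.131 for Fstl3 and 0.0745 for Dcn without 1 of them), and control replicate 3 also carried that of Fstl3. In the block model the counts were 4 higher and 1 lower.

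Of the SMADs, their partners and regulators, 3 of 15 tested genes rose and 0 fell (0 lower by DESeq2 and at an unadjusted p under 0.05; median log2 fold change 0.10). The block model called 4 higher and 1, Ski, lower, and upper-quartile scaling 2 higher and 1 lower. The 3 were Skil, a repressor of SMAD complexes, from 86.4 ± 15.7 to 173 ± 16.7 CPM (log2 fold change 1.00, SE 0.15, edgeR adjusted p = 0.0122), Tgif1, a SMAD corepressor, from 51.9 ± 7.90 to 87.9 ± 2.52 CPM (0.76, SE 0.12, adjusted p = 0.0134), and Smurf1, a ubiquitin ligase for SMADs and receptors, from 133 ± 6.67 to 182 ± 12.5 CPM (0.45, SE 0.08, adjusted p = 0.0212; SD, n = 3). The calls of all 3 were lost without control replicate 1, without control replicate 2 and without LPS replicate 2, those of Tgif1 and Smurf1 also without LPS replicate 1 (adjusted p up to 0.0644, 0.0727 and 0.114 for Skil, Tgif1 and Smurf1), and that of Smurf1 also with upper-quartile scaling and library size alone. Most genes of the list are known as negative regulators, and the others of these, such as Smad6, Tgif2 and Smurf2, were not called.

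Of 20 genes commonly induced by TGF-β, 3 rose and 3 fell, against 9.09% and 6.71% of all genes tested (median log2 fold change -0.09). The block model called 5 higher and 5 lower, against 15.4% and 14.9% of all genes. Timp3, a metalloproteinase inhibitor, went from 1144 ± 102 to 295 ± 52.0 CPM (log2 fold change -1.96, SE 0.16, edgeR adjusted p = 0.00176), Acta2, smooth muscle actin, from 1156 ± 106 to 303 ± 104 CPM (-1.93, SE 0.29, adjusted p = 0.0117), and Tagln, an actin-binding protein of smooth muscle, from 789 ± 22.6 to 362 ± 47.0 CPM (-1.12, SE 0.12, adjusted p = 0.00379; SD, n = 3). Those called higher included Itga5 (1.06, adjusted p = 0.00861) and Snai1 (0.81, adjusted p = 0.0198), named after their values were seen. The call of Acta2 was lost without control replicate 1 or 2 (adjusted p up to 0.0636), that of Itga5 without control replicate 2 (0.0593) and that of Snai1 without replicate 1 or 2 of either group (up to 0.0876). Acta2 and Tagln also belong to the smooth muscle markers, and the part of smooth muscle cells in their levels was not tested. Collagen genes of the list were not called, with the smallest change in Col1a1 at 5837 ± 375 and 5516 ± 94.5 CPM (log2 fold change -0.08, edgeR adjusted p = 0.663). The values were -0.10 for Col1a2 (adjusted p = 0.724), -0.28 for Col3a1 (0.256) and -0.33 for Col4a1 (0.143). For Col4a1 all LPS libraries lay below all control libraries. The collagen genes were named likewise after their values were seen.

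**Figure D5:**
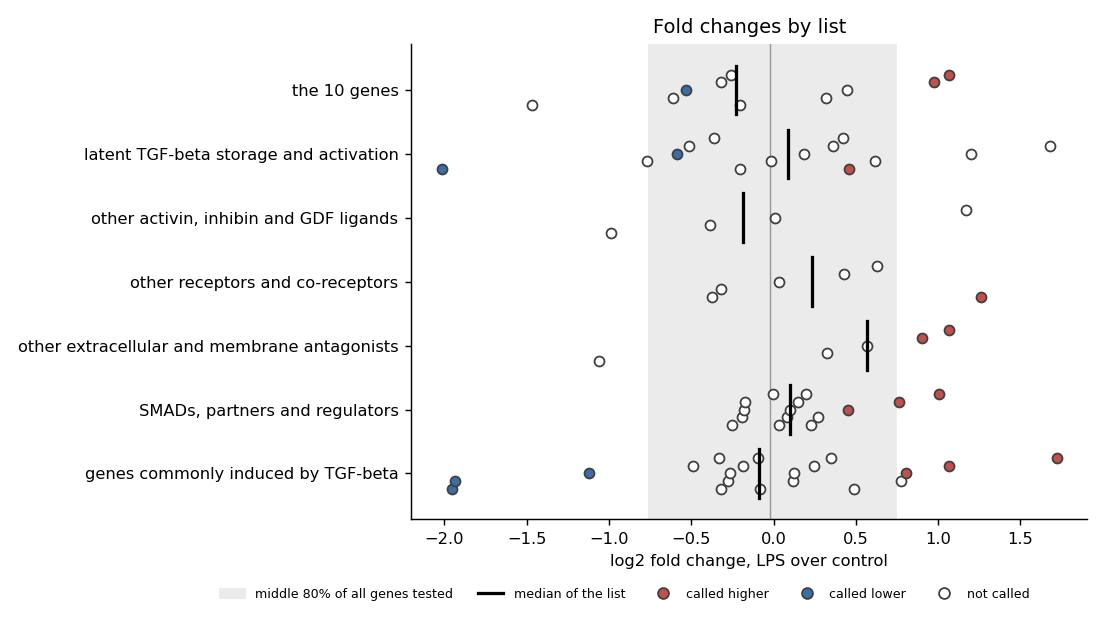
Log2 fold change of LPS over control (horizontal axis) for each tested gene of the 10 genes and of the 6 other lists (rows); red and blue points were called higher and lower, open points were not called, black bars are list medians, and the grey band spans -0.76 to 0.75, the middle 80% of all genes tested. The SMAD regulators and the antagonists hold called genes on the right side alone, and the TGF-β-induced list holds 3 on each side.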

How the data were processed

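Poly(A) RNA of 3 control and 3 LPS cultures was sequenced after a stranded library preparation. The authors deposited raw counts per gene and library. Their processing notes name cutadapt 1.15, Bowtie2 2.3.3.1, STAR 2.5.2b, SAMtools 1.5, featureCounts 1.5.3 and the genome GRCm38. The strand setting and the handling of reads with several alignments were not given in the sources used here, so reads in exons shared with another gene are uncertain. A table of the whole series was not used.

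Groups and replicate numbers were taken from the sample titles. Genes were filtered with filterByExpr (minimum count 10, minimum total 15), scaled with trimmed mean of M-values factors, and tested in edgeR 4.0.16 (R 4.3.3) with the quasi-likelihood F-test, two-sided, with the group as the term and Benjamini-Hochberg adjustment over 15226 genes. Calls were made at an adjusted p under 0.05. The standard error is the absolute log2 fold change divided by the square root of F. CPM use the scaled library sizes. The test was checked on simulated counts. The labels do not say that the libraries are separate preparations, so p-values measure the spread between these samples. Exon lengths and coordinates come from GENCODE M21, and promoters from RefSeq, whose table held 6 of the 10 genes. Motifs were searched on both strands.

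What the replicate numbers mean is not given in the labels, so pairing was judged from the libraries themselves: after subtracting each group's mean, the values correlated over genes at r = 0.513, 0.334 and 0.613 between same-numbered libraries, all above the limit of 0.1, although replicates 1 and 2 were not told apart: control replicate 1 with LPS replicate 2 gave 0.419 and control replicate 2 with LPS replicate 1 gave 0.323. Same-numbered libraries were therefore treated as pairs in the block model.

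The genes and lists were chosen with earlier results of these data known. The rule named all 10 members, up to 4 called genes of each other list by the size of the fold change, and, of a list with none, the 2 most abundant per kilobase (3 where the groups differed in the second). Some genes that count in these lists are not reported here by name. Alternatives were other scaling factors, filters and tests (DESeq2 1.42.0, limma-voom with limma 3.58.1), the replicate block and each library left out. Leaving out both libraries numbered 3 was added after the data were seen.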

Additional observations from a re-analysis of the deposited data

How the results depend on the processing

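Over 14 alternative settings and 10 genes, 110 of the results kept their direction and their side of the threshold, 14 lost a call, 11 gained one and 5 changed sign. Inhba was called in 12 of the 14, Tgfb2 in 10, Tgfb3 and Tgfbr3 in 6 each, Tgfbr2 in 2, Tgfb1, Fst and Smad7 in 1 each, and Tgfbr1 and Gdf15 in 0. The sign changes, none of them called, were Tgfb1 at -0.0021 and Gdf15 at 0.17 without LPS replicate 3, Fst at 0.10 and Gdf15 at 0.0080 without control replicate 1, and Tgfbr1 at 0.070 without control replicate 3. The cause was not tested. Across the 6 fits that each left out 1 library, the values ran from -0.0021 to 0.81 for Tgfb1, from -0.78 to 0.070 for Tgfbr1, from -0.54 to 0.10 for Fst and from -0.79 to 0.17 for Gdf15.

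Members called higher and lower, 2 and 1 in the model reported, were 1 and 2 with upper-quartile scaling, with library size alone and with limma-voom, and 2 and 2 with DESeq2. Of all genes, 6.9% were called higher and 10.4% lower with upper-quartile scaling, and 6.48% and 13.5% with library size alone. With limma-voom the shares were 8.21% and 6.05%, and with DESeq2 13.7% and 11%. Genes of the 6 other lists called higher and lower, 10 and 5 in the model reported, were 8 and 8 with upper-quartile scaling and 8 and 10 with library size alone. They were 10 and 7 with limma-voom and 14 and 8 with DESeq2, beside the same shares of all genes. With the replicate block the members called lower were 3, and the list genes were 19 higher and 13 lower. The block gave 4616 calls over all genes against 2406. It changed the call of no member other than Tgfb1, Tgfb3 and Tgfbr2. Leaving out 1 library gave 0 to 3 members higher, 0 to 3 lower, 1 to 19 list genes higher and 3 to 8 lower, while the share of all genes called ran from 3.15% to 21.7%. Without both libraries numbered 3 the counts were 4, 5, 27 and 21. Among the fits that left out 1 library, the fewest calls came without control replicate 2 (0, 0, 1 and 3) and the most without LPS replicate 3 (3, 3, 19 and 8).

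Taken over all genes tested, the median log2 fold change was -0.02 with the scaling used, -0.12 with upper-quartile scaling and -0.18 with library size alone, and 57.5%, 39.8% and 32.4% of calls over all genes were higher. With 3 libraries a group and no block, the 95% intervals of Tgfb1, Tgfbr1, Fst and Gdf15 include both no change and a 2-fold change. The lowest count of a member in a library was 68, and depth as a limit was not tested.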

Other observations

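The following quotients were chosen after the values had been seen and are levels per kilobase of exon, compared with a two-sided exact permutation test, for which 3 libraries against 3 cannot give a p below 0.1. Of the summed level of the 3 TGF-β ligand genes, the share of Tgfb1 was 33.7%, 36.6% and 49.8% in the control libraries (in the order of their numbers) and 71.1%, 73.6% and 69.3% in the LPS libraries (exact p = 0.1, the smallest possible). The share of Tgfb3 was 61.0%, 57.3% and 46.5% in control and 22.8%, 20.6% and 27.7% in LPS (exact p = 0.1). The share of Tgfb2 was 5.08% ± 1.20 in control and 4.92% ± 1.73 in LPS (SD, n = 3; exact p = 0.8), and the sum of the 3 ligands was 86.3 ± 12.9 and 67.8 ± 33.1 CPM per kilobase (exact p = 0.4).

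The quotient of Tgfbr3 over Tgfbr2 was 0.190, 0.174 and 0.114 in control and 0.711, 0.617 and 0.231 in LPS, with no overlap (exact p = 0.1). That of Inhba over Fst was 0.863, 0.928 and 2.69 in control and 2.27, 2.69 and 3.54 in LPS. It was higher in LPS in each same-numbered pair, but control replicate 3 lay inside the range of LPS (exact p = 0.3 in the permutation test, which did not use the pairs). These are 6 quotients and sums of 1 family, of which 3 reached the smallest possible p, with a Benjamini-Hochberg adjusted p of 0.2.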
